A study of Mus musculus with 22 samples.

Results

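The endothelial cells that line brain capillaries form the inner face of the blood-brain barrier. They are joined by tight junctions, they let little cross between or through the cells, and they carry nutrients in and drugs and waste out with dedicated transporters. Claudin-5 is the main sealing protein of their tight junctions, and its level in mice has been tied to the response to social stress. Of the 24421 genes in the count tables, 10 genes of this cell type were followed here: Cldn5 (claudin-5), Cdh5 (VE-cadherin of the adherens junctions) and Pecam1 (the adhesion molecule CD31) for junctions and adhesion, Flt1 (VEGF receptor 1), Kdr (VEGF receptor 2) and Tek (the angiopoietin receptor TIE2) for growth factor signaling, Slco1a4 (an organic anion transporter), Abcb1a (the drug exporter P-glycoprotein) and Mfsd2a (a lysolipid transporter that also holds back vesicle traffic through the cell) for transport, and Ly6c1, a surface marker of brain vessels. They were chosen by name, and all 10 were present in both tables.

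The samples were right brain hemispheres of 22 C57B6/J OlaHsd mice, a common inbred strain, with no genetic change and no drug under study. According to the study's methods, the mice were anesthetized with isoflurane before they were killed. Mice lived 4 to a cage, and rank came from the tube test, run when they were 10 to 12 weeks old, where the mouse pushed back out of a narrow tube loses. The groups were 7 dominant and 7 submissive males from the same 7 cages (called male cages 1 to 7 here, after the replicate numbers) and 4 dominant and 4 submissive females from the same 4 cages (female cages 1 to 4). Library names give female cages 1 and 2 a number and female cages 3 and 4 the names Gr1 and Gr2, and the labels do not say what Gr stands for. According to the study's methods, females of intermediate rank were regrouped into new cages and ranked again later, so some ranked females of the study came from such cages. Whether the Gr cages are those is not given in the sources used here. Each group is thus a set of cage mates of the other rank, and there was no unranked control group. Males and females came in separate tables, and their library names begin differently, without the labels saying what the beginnings stand for. Sex, table and whatever these names stand for therefore cannot be told apart. Between 12.4 and 16.5 M reads (M, mega) per mouse were counted on genes. Values are CPM, the reads of a gene per M reads of its library after TMM scaling, where 3 counts, taken as the detection floor, were at most 0.243 CPM. The lowest count of any of the 10 genes in any mouse was 132 (Cdh5).

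The hemisphere is mostly neurons and glia, so these genes report on a small share of the tissue. Summed markers of neurons reached 3776 to 4776 CPM and those of oligodendrocytes 4194 to 5591 CPM, whereas the 10 endothelial genes together reached 259 to 321 CPM. Such sums depend on the genes chosen and do not measure shares of cells. In such bulk tissue, fewer endothelial cells and less RNA per endothelial cell cannot be told apart. Of 4 globin genes in the red cell list, all 4 were listed at 0 in the 22 mice, so that list rests on Alas2 alone.

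Both genes that passed a test, Cldn5 between cages and Mfsd2a between tables, are shown with the 250 bases before their RefSeq start site (build GRCm38.p6), 5′ to 3′ on the gene's own strand. Cldn5 lies on the plus strand at chr16:18776597-18776846, and Mfsd2a on the minus strand at chr4:122961189-122961438. Capitals mark each CCAAT box, searched as CCAAT and, on the opposite strand, ATTGG.

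Cldn5: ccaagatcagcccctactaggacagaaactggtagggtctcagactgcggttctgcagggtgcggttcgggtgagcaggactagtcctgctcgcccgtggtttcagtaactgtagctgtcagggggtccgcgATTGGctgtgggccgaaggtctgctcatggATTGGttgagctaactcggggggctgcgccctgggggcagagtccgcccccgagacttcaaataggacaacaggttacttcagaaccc

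Mfsd2a: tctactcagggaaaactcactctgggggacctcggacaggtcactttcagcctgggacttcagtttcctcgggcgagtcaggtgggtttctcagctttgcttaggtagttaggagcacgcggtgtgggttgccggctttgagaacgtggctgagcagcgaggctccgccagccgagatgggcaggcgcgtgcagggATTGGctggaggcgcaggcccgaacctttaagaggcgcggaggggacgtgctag

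The Cldn5 stretch holds the box at 2 places and the Mfsd2a stretch at 1, and 33.8% of the 32851 promoters in the table hold it at least once. The letters GGAA, the core of sites of ETS factors (or TTCC on the opposite strand), do not occur in the Cldn5 stretch, occur 2 times in that of Mfsd2a, and occur in 93.4% of all promoters. AGAACA (or TGTTCT), a glucocorticoid receptor half-site, occurs in 16.1% of promoters and in neither of these, although it occurs once before Tek. Promoters were found for 8 of the 10 genes, of which 7 held GGAA and 4 held CCAAT. The RefSeq start of Abcb1a used here lies 93001 bases from its start in the annotation behind the counts. Ly6c1 was searched at 2 start sites, and CCAAT occurs before 1 of them. A match of letters is a description and not a bound site.

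The genes differed widely in level. Per kilobase of exon, Slco1a4 (21.9 ± 1.47 CPM per kb, SD, n = 22) and Cldn5 (21.5 ± 3.80) were the most abundant, and Cdh5 (2.92 ± 0.364) was the least. Slco1a4 exceeded Cldn5 in 14 of 22 mice, so the order of these neighbours was not fixed. Abcb1a (9.18 ± 0.537) and Ly6c1 (8.87 ± 0.959) followed, with Abcb1a the higher in 13 of 22 mice. Mfsd2a (6.78 ± 0.931) and Pecam1 (6.71 ± 0.487) were equally close, as were Flt1 (4.94 ± 0.664) and Tek (4.77 ± 0.336), each pair keeping its order in 13 of 22 mice. The steps from Cldn5 to Abcb1a, from Pecam1 to Flt1 and from Tek to Kdr (3.30 ± 0.294) were present in all 22 mice. Cldn5 was also the most variable gene across mice, with a coefficient of variation of 17.6%, compared with 5.85% for Abcb1a. Its highest CPM was 1.83 times its lowest, against 1.25 times for Tek and 1.26 times for Slco1a4.

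Relatives with similar sequence took few reads. Ly6c2, the close relative of Ly6c1, had at most 2 counts in a mouse, and Slco1a1 and Slco1a6 had at most 1 and 2. Slco1a5 had 0.327 to 1.33 CPM. Abcb1b, the second mouse P-glycoprotein gene, had 3.97 to 6.56 CPM against 37.9 to 48.5 CPM for Abcb1a. The way in which reads that map to both copies were counted is not stated in the sources used here, so the values of Abcb1a and Ly6c1 carry that uncertainty. No exon base of any of the 10 genes was shared with another gene of the authors' annotation.

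**Figure D1:**
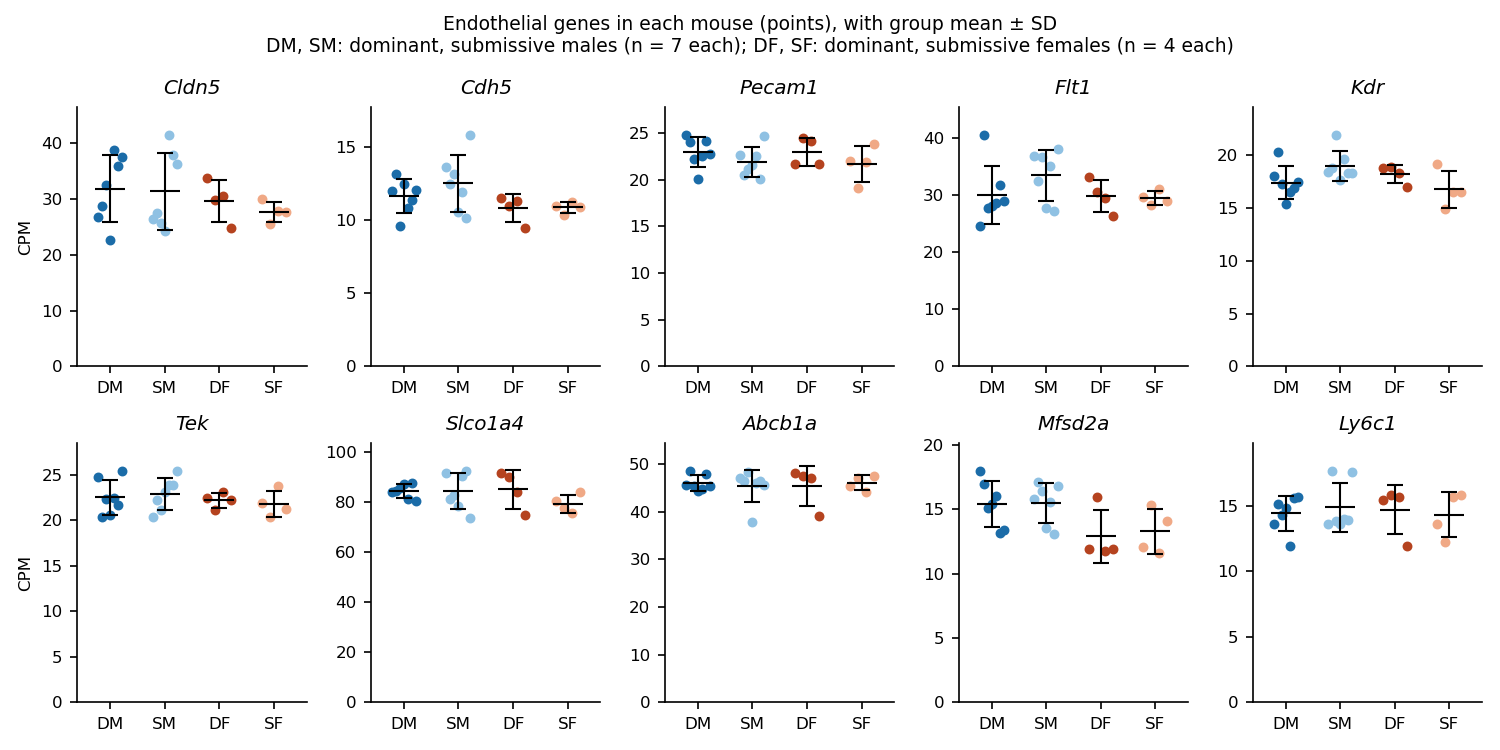
CPM (vertical axes, starting at 0) of the 10 endothelial genes in each mouse, by group. Points are mice, and the bar and whiskers are the group mean ± SD (7 mice per male group, 4 per female group). The dominant and the submissive points overlap for every gene, Cldn5 spreads widely in both male groups, and the Mfsd2a means of both female groups (12.9 and 13.3 CPM) lie below those of both male groups (15.4 and 15.5 CPM).

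The first comparison asked whether endothelial genes differ between dominant and submissive males. None of the 10 genes was called in edgeR's quasi-likelihood test (0 at an unadjusted p under 0.05, 0 with DESeq2), where 0% of the 14737 genes tested were called and 194 had an unadjusted p under 0.05. Of the 10 genes, 3 had a positive and 7 a negative log2 fold change of dominant relative to submissive mice, with a median of -0.015 (all genes -0.0015), and each adjusted p was 1.00 (edgeR).

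Cldn5 ranged from 22.7 to 38.7 CPM in dominant males (median 32.4) and from 24.2 to 41.4 CPM in submissive males (median 27.5). The ranges of both ranks nearly coincide, and the means were 31.8 ± 6.00 and 31.3 ± 6.94 CPM (SD, n = 7 each). The difference in log2 CPM was 0.028 (exact permutation test over all 3432 assignments of rank, two-sided, p = 0.867), and the fitted log2 fold change of 0.021 had a 95% confidence interval of -0.26 to 0.30. The dominant male had the higher value in 4 of 7 cages. With cage as a block the standard error fell from 0.132 to 0.0518, the log2 fold change was 0.025 (95% confidence interval -0.086 to 0.14, unadjusted p = 0.634, edgeR), and Cldn5 was again not called.

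Among the other junction genes, Cdh5 ranged from 9.61 to 13.1 CPM in dominant and from 10.1 to 15.8 CPM in submissive males. Pecam1 ranged from 20.0 to 24.8 and from 20.1 to 24.7 CPM (medians 22.7 and 21.6). Both pairs of ranges overlap over most of their length. Log2 fold changes were -0.11 for Cdh5 (standard error 0.0935, unadjusted p = 0.256, edgeR) and 0.065 for Pecam1 (0.0571, unadjusted p = 0.267). That of Cdh5 was -0.043 without the submissive male of cage 7 and -0.16 without that of cage 6.

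The receptors for VEGF, the main growth signal for vessels, had higher fitted values in submissive than in dominant males, and neither passed the test. Flt1, which binds VEGF tightly and can act as a decoy, ranged from 24.6 to 40.6 CPM in dominant males (median 28.7) and from 27.3 to 38.1 CPM in submissive males (median 35.1). Its log2 fold change was -0.16 (standard error 0.0986, 95% confidence interval -0.36 to 0.050, unadjusted p = 0.128, adjusted p = 1.00, edgeR), and it was -0.24 without the dominant male of cage 2, which had the highest Flt1. Kdr, the main signaling receptor, ranged from 15.4 to 20.3 CPM (median 17.3) in dominant males and was 17.7 CPM or more in each submissive male (median 18.5). Its log2 fold change was -0.13 (standard error 0.0630, unadjusted p = 0.0568, adjusted p = 1.00, edgeR). The dominant male of a cage had the lower Kdr in 6 of 7 cages and the lower Flt1 in 4 of 7. With cage as a block the unadjusted p of Kdr was 0.0434 and its adjusted p 1.00 (edgeR). Tek, the angiopoietin receptor, ranged from 20.4 to 25.4 CPM in both ranks.

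The transport genes came next. Slco1a4 ranged from 80.7 to 87.9 CPM in dominant males and from 73.7 to 92.7 CPM in submissive males, so its submissive range enclosed the dominant one, and its log2 fold change was -0.0022 (95% confidence interval -0.11 to 0.10). Abcb1a had medians of 45.4 and 46.4 CPM and Mfsd2a of 15.4 and 15.8 CPM. Ly6c1 had medians of 14.8 and 13.9 CPM but means of 14.4 ± 1.32 and 14.9 ± 1.88 CPM (SD, n = 7 each), so the direction depended on the summary chosen.

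In females, 0 of the 10 genes was called by rank with edgeR and 0 had an unadjusted p under 0.05, where 0.0942% of 14865 genes tested were called and 1563 had an unadjusted p under 0.05. DESeq2 called 0 of the 10 but gave no adjusted p for 8 of them. Of the 10, 7 had a positive and 3 a negative log2 fold change, with a median of 0.026 (all genes -0.0020), and adjusted p-values ran from 0.578 to 0.978 (edgeR).

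Cldn5 was 33.8, 29.7, 30.4 and 24.7 CPM in the dominant females of cages 1 to 4 in turn, and 29.9, 25.5, 27.7 and 27.6 CPM in their submissive cage mates. The dominant mouse was higher in 3 of 4 cages, and the groups overlap because the dominant mouse of cage 4 had the lowest value of all 8. The difference in log2 CPM was 0.092 (exact permutation test over 70 assignments, two-sided, p = 0.429, where the smallest p possible is 0.0286).

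Kdr was 18.8, 18.9, 18.3 and 17.1 CPM in dominant and 19.2, 14.9, 16.5 and 16.5 CPM in submissive females, in the same order of cages. Slco1a4 was 91.8, 90.0, 84.2 and 74.8 CPM in dominant and 80.4, 77.6, 75.7 and 84.1 CPM in submissive females. For both genes the dominant mouse was higher in 3 of 4 cages, and the exception was cage 1 for Kdr and cage 4 for Slco1a4. For Kdr the log2 fold change was 0.12 (standard error 0.0765, unadjusted p = 0.142, edgeR), and it was 0.19 without the submissive female of cage 1 and 0.062 without that of cage 2. For Slco1a4 it was 0.094 (0.0537, unadjusted p = 0.0963, edgeR).

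The dominant female of cage 4 was low in other genes too. Its Abcb1a was 39.1 CPM against 47.0 to 48.1 CPM in the other dominant females, and its Ly6c1 was 11.9 CPM against 15.4 to 15.8 CPM. Cdh5 (9.48 CPM) and Flt1 (26.3 CPM) were also the lowest values among the 8 females. The submissive female of the same cage did not share this, with 47.5 CPM of Abcb1a and 15.8 CPM of Ly6c1. Without the dominant mouse of cage 4, 0 of the 10 genes was called by rank in females (edgeR), but fitted values moved. As this mouse was picked for its low values in the same genes, the p-values without it only describe the shift. The log2 fold change became 0.17 for Cldn5 (unadjusted p = 0.0181, adjusted p = 0.408, edgeR), 0.15 for Slco1a4 (unadjusted p = 0.00338, adjusted p = 0.261, edgeR) and 0.12 for Ly6c1. Those of Cdh5 (from -0.010 to 0.048) and Abcb1a (from -0.027 to 0.038) turned sign. Without the dominant mouse of cage 1 the values fell instead, to 0.024 for Cldn5 and 0.056 for Slco1a4, and that of Ly6c1 turned to -0.039 without the submissive mouse of cage 2.

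**Figure D2:**
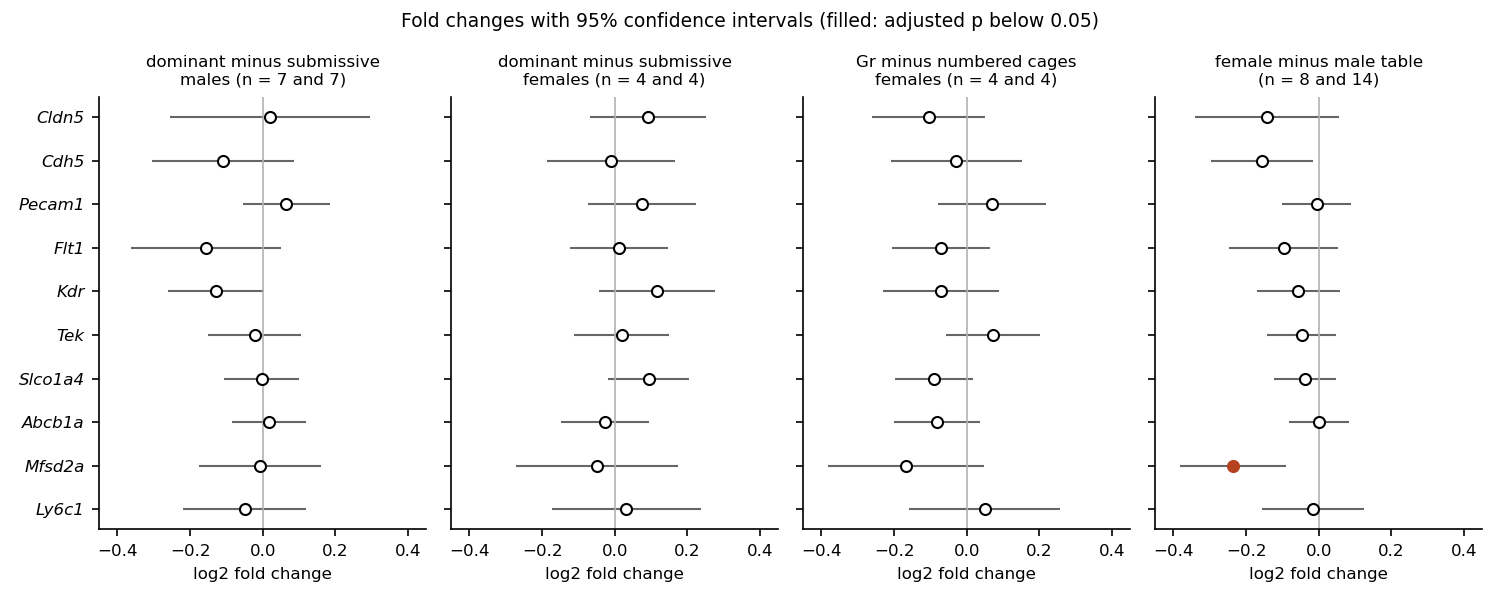
Log2 fold changes (horizontal axes, all on one scale) of the 10 genes with 95% confidence intervals from edgeR for rank in males, rank in females, kind of cage in females and table. Filled points have an adjusted p under 0.05. One point is filled, Mfsd2a in the female against the male table (-0.24), and the interval of every rank difference crosses 0.

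The rank differences of both tables were then joined. With a mean for each table, 0 of the 10 genes was called by rank (0% of 15233 genes, of which 290 had an unadjusted p under 0.05; among the 10, 0 did, and DESeq2 called 0), with log2 fold changes from -0.092 for Flt1 to 0.073 for Pecam1. The test of whether the rank difference in females differed from that in males called 0 of the 10 (0% of 15233 genes, of which 505 had an unadjusted p under 0.05; DESeq2 called 0). Of the 10, 1 had an unadjusted p under 0.05. It was Kdr, which had opposite signs in both tables, and its interaction was 0.25 (standard error 0.102, unadjusted p = 0.0214, adjusted p = 0.999, edgeR). A difference of Kdr between the tables in its relation to rank was thus not established after adjustment over all genes.

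Related endothelial genes were counted next. The 6 lists (junction and adhesion genes, transporters, VEGF and angiopoietin ligands and co-receptors, the Wnt pathway that induces the barrier, endothelial transcription factors, and genes of inflamed or leaky endothelium) held 80 genes, of which 75 were tested in each sex. None was called by rank in males or females (edgeR), 3 and 4 had an unadjusted p under 0.05, and DESeq2 called 0 in males and 0 in females, where it gave no adjusted p for 54 of the 75. List medians of the log2 fold change lay between -0.038 and -0.0073 in males and between -0.043 and 0.064 in females. In the leaky endothelium list, Sele and Selp, adhesion molecules of inflamed vessels, were near the floor with at most 2 and 3 counts in a mouse. Pericyte markers, for the cells that wrap capillaries, had 0 of 11 genes called in either sex and medians of -0.065 and 0.025. The choroid plexus list had 0 of 6 genes called in either sex, with a median of 0.077 in males (2 genes at an unadjusted p under 0.05) and of -0.25 in females (4 genes).

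Cage mates can also share a level irrespective of rank. The 2 mice of each male cage were therefore compared with those of the other cages in an F test over the cage terms, with rank in the model. Cldn5 was the single gene of the 10 that was called (unadjusted p = 1.17e-05, adjusted p = 0.00265, edgeR), and 5.89% of the 14737 genes tested were called. One in 10 is close to that background, so nothing particular to endothelial genes follows from the count. The other 9 genes had adjusted p-values from 0.265 (Ly6c1) to 0.737 (Pecam1).

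In male cages 1, 2, 3 and 4 the dominant and the submissive male had 26.7 and 26.3, 28.7 and 27.5, 32.4 and 25.8, and 22.7 and 24.2 CPM of Cldn5. In male cages 5, 6 and 7 they had 38.7 and 41.4, 35.8 and 37.8, and 37.6 and 36.1 CPM. No mouse of the first 4 cages reached the lowest value of the last 3. Within a cage the 2 mice differed by a median of 1.51 CPM and by at most 6.64 CPM (cage 3), while the SD of the 7 cage means was 6.29 CPM. Cage 5 had the highest mean (40.1 CPM), 1.71 times that of cage 4 (23.4 CPM). Library names number the 14 male libraries in the order of the cages, so cage and library number cannot be told apart.

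**Figure D3:**
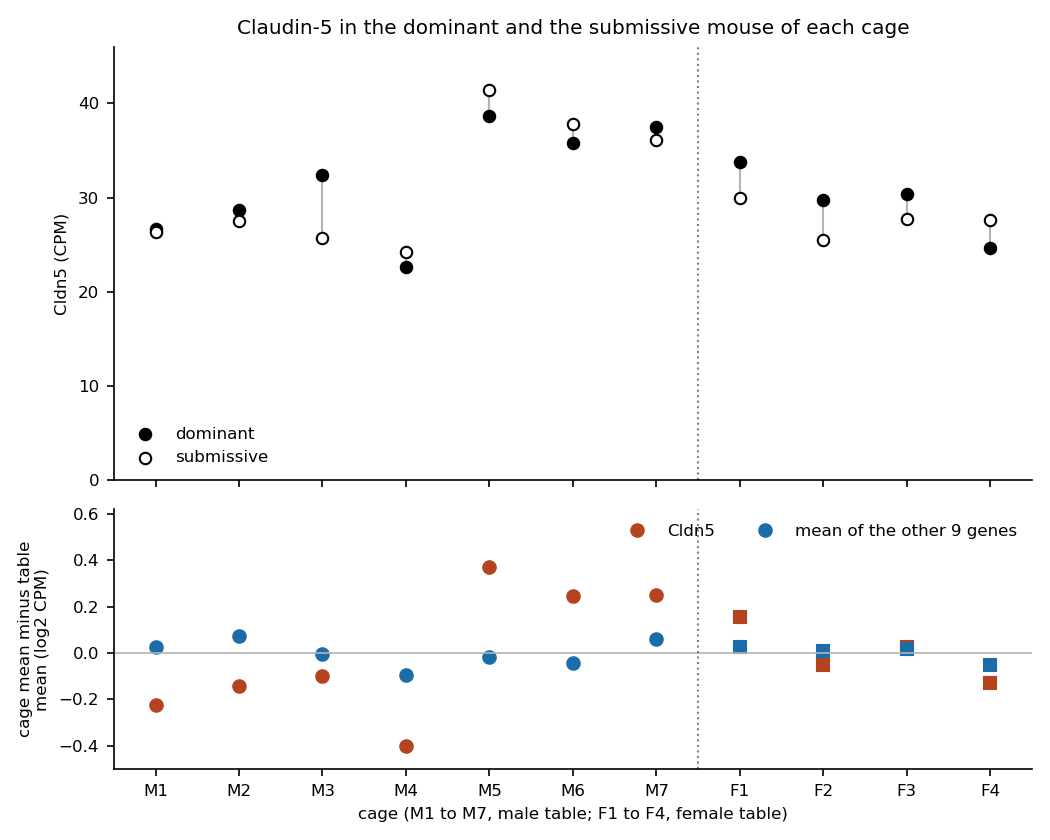
Upper panel, Cldn5 in CPM (axis from 0) for the dominant (filled) and the submissive mouse (open) of each cage. Lower panel, the cage mean minus the mean of its table in log2 CPM for Cldn5 and for the mean of the other 9 genes (circles, males; squares, females). M1 to M7 are male and F1 to F4 female cages. In males the cage mean of Cldn5 ran from 23.4 CPM in cage M4 to 40.1 CPM in cage M5, and that of the other 9 genes from 4.52 to 4.68 in log2 CPM.

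None of the other 9 genes was called between cages, but the cage means of Tek split between the same cages as Cldn5. They were 22.6, 21.3, 21.7 and 21.8 CPM in male cages 1 to 4 and 23.2, 22.8 and 25.4 CPM in male cages 5 to 7 (adjusted p = 0.551, edgeR). Cage mates differed in Tek by a median of 1.85 CPM, and those of male cage 1 had 24.8 and 20.4 CPM. The mean log2 CPM of the other 9 genes was 4.60 in male cage 5 and 4.52 in male cage 4 and was highest in male cage 2 (4.68), where Cldn5 was 28.1 CPM. Flt1 is an example of the opposite pattern: its cage means had an SD of 2.78 CPM, but mice of one cage differed by a median of 8.18 CPM. Mfsd2a had its lowest mean in male cage 6 (13.1 CPM) and its highest in male cage 2, 1.30 times as much, with an adjusted p of 0.311 in the F test of edgeR. Ly6c1 had its lowest mean in male cage 5 and its highest in male cage 7 (16.6 CPM), with an adjusted p of 0.265 in the same test of edgeR.

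**Figure D4:**
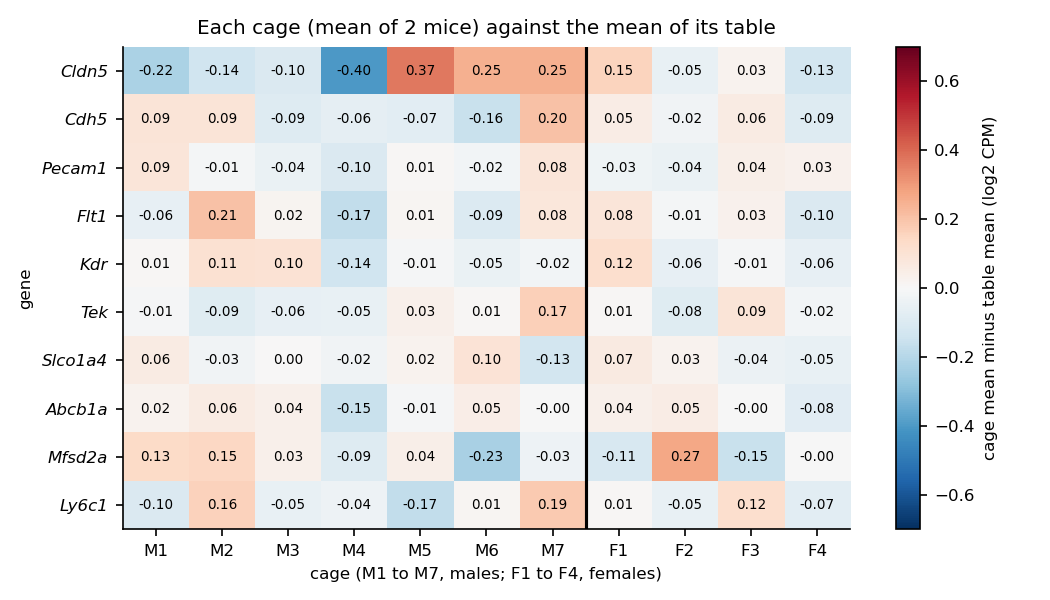
Cage mean (2 mice) minus the mean of its table, in log2 CPM, for each gene (rows) and cage (columns; M1 to M7 male, F1 to F4 female). Red is above and blue below the table mean. The strongest colors are those of Cldn5, at -0.40 in cage M4 and 0.37 in cage M5, and Mfsd2a stands out in cage F2 at 0.27.

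Cldn5 is a short gene with GC-rich exons (1416 bases, GC content 60.5%), and the male libraries differed in how counts depended on both properties. The trend on GC content at the position of Cldn5 was between -0.051 and -0.022 (log2) in the means of male cages 1 to 4 and between 0.017 and 0.073 in those of male cages 5 to 7. The trend on exon length was between -0.039 and -0.022 and between 0.025 and 0.052 in the same cages. Cldn5 itself differed by 0.77 on that scale between male cages 4 and 5. After correction for length the adjusted p of the cage test was 0.00731, and after correction for GC content 0.00522 (edgeR), and across all 19 alternatives it ran from 2.34e-07 to 0.0131. Both corrections follow the trend over all genes, and the part of either property in the Cldn5 result itself was not tested.

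Depth and some summed lists moved alongside. The 2 mice of a cage had on average 12.6 to 14.2 M counted reads in male cages 1 to 4 and 14.6 to 15.5 M in male cages 5 to 7. Among endothelial lists, junction and adhesion genes summed to 1157 to 1177 CPM in the means of male cages 1 to 4 and to 1194 to 1217 CPM in those of male cages 5 to 7, and transport genes to 1219 to 1263 and to 1270 to 1305 CPM. The VEGF and angiopoietin list (297 to 306 against 279 to 292 CPM) and the Wnt list (310 to 328 against 303 to 305 CPM) split the other way. The summed smooth muscle markers were 23.3 to 24.8 CPM in the means of male cages 1 to 4 and 28.2 to 29.9 CPM in those of male cages 5 to 7, with 0 of 4 tested genes of the list called between cages and no gene of it at 0. Choroid plexus markers summed to 620 CPM in male cage 1 and to 943 CPM in male cage 5 (0 of 6 called). Pericyte markers were between 223 and 237 CPM in every male cage, highest in male cage 4. The part of depth and of these lists in the Cldn5 result was not tested.

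In the 6 endothelial lists 3 of 75 tested genes (4%) were called between male cages, against 5.89% of all genes, so the count says nothing particular to the barrier. The 3 were among the 16 transport genes: Bsg (basigin, the partner of lactate transporters; cage means from 319 to 373 CPM, highest in cage 5), Insr (the insulin receptor; 70.8 to 94.3 CPM, highest in cage 4) and Tfrc (the transferrin receptor; 228 to 273 CPM, highest in cage 4), with adjusted p-values of 0.00971, 0.0201 and 0.0352 (edgeR). Neurons and glia express all 3. The adjusted p of Bsg was 0.0540 after correction for length and 0.0665 after correction for GC content, and that of Insr was 0.308 after correction for length (edgeR). The other 5 endothelial lists had 0 of 59 tested genes called between male cages with edgeR. Of the 59, 9 had an unadjusted p under 0.05 (edgeR), where 22.3% of all genes tested did. Over all 6 lists DESeq2 called 4 of 75 genes, 1 of them an endothelial transcription factor, and gave no adjusted p for 24. Among the markers of other cells, 1 of 11 pericyte genes was called (Cspg4, also of oligodendrocyte precursors) and 1 of 5 astrocyte genes (Aldh1l1). Of 6 neuron genes 2 were called (Slc17a7 and Rbfox3), and the remaining lists of other cells had 0 called. Adjusted p-values of Cspg4, Aldh1l1, Slc17a7 and Rbfox3 were 0.0145, 0.0370, 0.0103 and 0.0388 (edgeR), and Aldh1l1 had 0.0862 with DESeq2. Of these, Slc17a7 kept its call under both corrections, whereas the adjusted p was 0.0727 for Cspg4 and 0.0579 for Aldh1l1 after correction for length, and 0.0532 for Aldh1l1 and 0.0657 for Rbfox3 after correction for GC content (edgeR).

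The genes whose levels moved most like Cldn5 over the 22 mice, after centring within the 4 groups, were Rundc3a, Cadm4, Kcnmb4, Abhd17a and Csnk1g2 (Pearson r from 0.88 to 0.91, of 14243 genes compared). Their mean levels were 35.6 to 254 CPM, and their GC contents ran from 44.3% (Kcnmb4) to 64.6% (Abhd17a). The r was 0.91 to 0.94 over the 14 males and 0.30 to 0.70 over the 8 females. These mice share cages in pairs, and no endothelial gene of the panel came as close, with Tek at 0.50 the nearest.

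In females, 0 of the 10 genes was called between the 4 cages (edgeR), against 0.074% of 14865 genes, and DESeq2 called 0. Of the 10, 2 had an unadjusted p under 0.05 (edgeR), against 759 (5.11%) of all genes tested. Mfsd2a was 16.0 and 15.3 CPM in the dominant and the submissive mouse of female cage 2, against 11.9 and 12.1 CPM in cage 1, 11.7 and 11.6 CPM in cage 3, and 11.9 and 14.1 CPM in cage 4. Both mice of cage 2 thus lay above the other 6 females (unadjusted p = 0.00479, adjusted p = 0.656, edgeR). Cldn5 had cage means from 26.1 (cage 4) to 31.8 CPM (cage 1), with an unadjusted p of 0.0400 and an adjusted p of 0.955 (edgeR).

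The numbered female cages were also compared with the Gr cages. None of the 10 genes was called (0 at an unadjusted p under 0.05 with edgeR, 0 with DESeq2), and 0.00673% of the 14865 genes tested were. Of the 10 genes, 7 had lower and 3 higher fitted values in the Gr cages, with log2 fold changes from -0.17 for Mfsd2a to 0.073 for Tek (median of all genes 0.00037). That of Mfsd2a ran from -0.25 without the submissive female of cage 1 to -0.061 without the dominant female of cage 2. The 4 mice of each kind came from 2 cages. With counts summed per cage 0 of the 10 genes was called, with adjusted p-values from 0.859 to 0.982 (edgeR).

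The last comparison set the female against the male table. Mfsd2a was the single gene of the 10 called, against 36.5% of 15233 genes tested (2830 higher and 2730 lower in the female table). Of the 10 genes, 9 had lower fitted values in females, with a median log2 fold change of -0.052 (all genes 0.00021).

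Mfsd2a ranged from 13.1 to 18.0 CPM in the 14 males. In the 8 females it was 11.9, 16.0, 11.7 and 11.9 CPM in the dominant and 12.1, 15.3, 11.6 and 14.1 CPM in the submissive mice. Of the 8 females, 5 lay below the lowest male, and the 3 others, both mice of female cage 2 and the submissive mouse of female cage 4, lay within the male range. The log2 fold change was -0.24 (standard error 0.0711, 95% confidence interval -0.38 to -0.091, adjusted p = 0.0101, edgeR), and the adjusted p was 0.0429 with counts summed per cage. Across the 28 alternatives it ran from 0.00153 to 0.0429.

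Cdh5 had the next smallest p, with 9.48 to 11.5 CPM in females and 9.61 to 15.8 CPM in males (log2 fold change -0.16, standard error 0.0691, unadjusted p = 0.0323, adjusted p = 0.0788, edgeR). Its adjusted p fell below the threshold without the dominant male of cage 3 (0.0301), without the submissive male of cage 4 (0.0383) or without that of cage 6 (0.0271). Cldn5 had a log2 fold change of -0.14 (adjusted p = 0.263), which became -0.23 after correction for GC content (adjusted p = 0.0340, edgeR). Abcb1a (0.0013), Pecam1 (-0.0049) and Ly6c1 (-0.015) had the log2 fold changes nearest to 0, and that of Abcb1a had a 95% confidence interval of -0.081 to 0.084.

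Other genes of the barrier moved in both directions between the tables. Of 76 tested genes in the 6 endothelial lists, 28 were called (36.8%), 15 higher and 13 lower in females, a share near the background. Among transporters Slc2a1, the glucose transporter of the barrier, rose most, from 33.8 ± 2.97 CPM in males (SD, n = 14) to 54.7 ± 5.38 CPM in females (SD, n = 8; log2 fold change 0.69, standard error 0.0535, adjusted p = 1.43e-10, edgeR). Slc7a5 and Slc3a2, which form the large amino acid transporter, were higher by 0.35 and 0.14. Of 16 transport genes 4 were higher and 3 lower. Of 15 junction and adhesion genes 0 was called higher and 3 lower: Tjp1 (the scaffold ZO-1, -0.27), Mcam (-0.18) and Jam2 (-0.11). Among VEGF genes 2 were higher, with Vegfb at 0.59, and 3 lower, with the co-receptors Nrp2 at -0.31 and Nrp1 at -0.20. Of 13 genes of the Wnt list 3 were higher and 2 lower. Nkd1 and Apcdd1, feedback targets of Wnt signaling, were higher by 0.62 and 0.34, while the Wnt co-receptor Lrp6 was lower by 0.22 on the log2 scale. Of the transcription factors 5 were higher, with Foxf2 at 0.85 and Klf4 at 0.61, and 2 lower, with Epas1 at -0.37. Plvap, a protein of leaky capillaries, had a log2 fold change of 0.26 (adjusted p = 0.0295, and 0.180 after correction for GC content and 0.0753 with counts summed per cage, edgeR). Many of these genes are also expressed by neurons or glia.

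Markers of other cells were counted too, against the 36.5% of all genes that were called. Of 11 pericyte genes 7 were called, 6 lower in the female table and 1 higher, with a median of -0.19, and their summed level was 195 to 217 CPM in females and 220 to 245 CPM in males, with no overlap. The genes with the smallest p were Pdgfrb (-0.30), Notch3 (-0.65) and Cspg4 (-0.62). Of 6 fibroblast and meningeal genes 3 were called, each lower in females (Col3a1, Igf2 and Col1a2). The smooth muscle gene Myh11 (-0.33) and Alas2 (-0.72) were lower too. Smaller counts came from macrophages (F13a1, 0.18, adjusted p = 0.0478 with edgeR and 0.0921 with DESeq2), microglia (Csf1r, -0.25, and Cx3cr1, 0.35), choroid plexus (Kl, -0.35, 1 of 6 genes called, with a list median of 0.096), astrocytes (Aldh1l1, -0.27, and Gja1, -0.096), oligodendrocytes (Mag, -0.44, and Mbp, -0.25, 2 of 5 genes called, with a list median of 0.021) and neurons (Snap25, 0.45, and Rbfox3, 0.39, 2 of 6 genes called, with a list median of 0.061). The summed neuron markers were 3776 to 4333 CPM in males and 4505 to 4776 CPM in females, also with no overlap. Most of that shift lay in Snap25 alone, with means of 1432 CPM in males and 1958 CPM in females. The part of these shifts in the Mfsd2a result was not tested.

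Across mice, the panel did not move as a block. After centring within the 4 groups, 35 of the 45 pairs of genes had a positive Pearson r and 10 a negative one, with a median of 0.20 over the 22 mice. Cdh5 and Flt1 were the closest pair (0.71), followed by the transporters Slco1a4 and Abcb1a (0.58) and by Flt1 with Abcb1a (0.57). Tek ran against several of the others, with -0.36 to Slco1a4, -0.34 to Mfsd2a and -0.32 to Flt1. Cldn5 had a median r of 0.16 with the other 9 genes, from -0.26 with Mfsd2a to 0.50 with Tek. These values describe mice that share cages in pairs, and at 132 to 1494 counts per gene and mouse part of the spread is counting error.

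**Figure D5:**
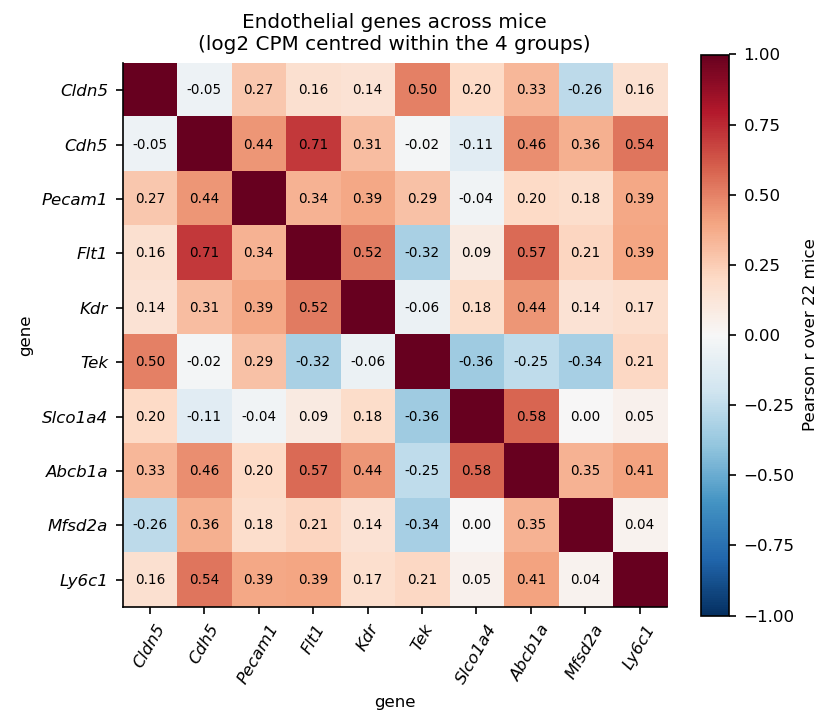
Pearson r between each pair of the 10 genes over 22 mice, on log2 CPM centred within the 4 groups (color scale from -1 to 1). The pair of Cdh5 and Flt1 has the highest r, at 0.71, and Tek has negative values, down to -0.36 with Slco1a4.

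The genes most like the mean of the whole panel were Cxcl12, Eps8l2, Sgms2, Vwa1, Wdr72, Arvcf, Nudt8, Alx4, Rrm2 and Acvrl1 (r from 0.70 to 0.77 over 22 mice). Cxcl12, a chemokine, was the closest, with r = 0.82 in the males and 0.69 in the females. Acvrl1 encodes a receptor of endothelial cells, and Cxcl12 (39.7 CPM) was the most abundant of the 10. The mean log2 CPM of the panel was 4.63 ± 0.0584 in dominant and 4.66 ± 0.0902 in submissive males (SD, n = 7 each), and 4.59 ± 0.107 in dominant and 4.55 ± 0.0482 in submissive females (SD, n = 4 each). The ranges of the 4 groups overlapped.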

How the data were processed

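Total RNA sequencing of right brain hemispheres was analysed for 22 mice in 4 groups, taken from the sample titles. The 10 genes and all lists were chosen with earlier results of these data known. The authors removed ribosomal RNA, made stranded libraries, used cutadapt 1.15 and bbduk for trimming, STAR 2.6.0a for alignment to the mm10 build and featureCounts 1.6.2 for counting. The deposited values are raw counts, without normalization. The strand setting of the counting is not given in the sources used here.

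CPM and log2 CPM (prior count 2) were computed with TMM factors. Low genes were removed with filterByExpr (minimum count 10, minimum total 15). The main test was the quasi-likelihood test of edgeR 4.0.16 (R 4.3.3) with Benjamini-Hochberg adjustment over all genes tested and a threshold of 0.05. Each sex was fitted on its own for rank, cage (F test, with rank) and kind of cage, and all 22 mice for rank with table, their interaction and table with rank. Cldn5 was also tested by exact permutation. Fold changes are dominant relative to submissive, Gr relative to numbered cages, and female relative to male. Alternatives were DESeq2 1.42.0, its size factors in edgeR, no filter, loess offsets (span 0.3) for exon length or, chosen after seeing the data, GC content, counts summed per cage, cage as a replicate block, and leaving out each mouse. The scripts were tested on simulated data.

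Members of the panel were named in every comparison, and from each list at most the 3 called genes with the smallest p. Genes most alike were taken among those with a mean of at least 1 CPM. Promoter sequences are from RefSeq. Intervals are 95% confidence intervals. The replicate numbers pair the mice by the cage in the library names, and cage mates were killed at the same time according to the study's methods. Over genes, deviations of cage mates from the means of their groups correlated with a mean r of 0.157 in males (-0.0259 to 0.240), against -0.0261 for other dominant and submissive pairs, and of 0.0211 against -0.00703 in females.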

Additional observations from a re-analysis of the deposited data

Results flagged for a closer look

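In the 40 combinations of gene and group, 4 values stood farther from the rest of their group than Dixon's test at 95% allows, and chance alone marks about 1 in 20 groups. Abcb1a was 37.9 CPM in the submissive male of cage 4, against 45.6 to 48.3 CPM in the other submissive males. Mfsd2a was 16.0 CPM in the dominant female of cage 2, against 11.7 to 11.9 CPM in the other dominant females. In the dominant female of cage 4, Abcb1a was 39.1 CPM against 47.0 to 48.1 CPM, and Ly6c1 was 11.9 CPM against 15.4 to 15.8 CPM, so 2 of the 4 values belong to 1 mouse.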

How the results depend on the processing

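The count of genes called stayed the same in males, in females, over both tables, for the interaction, between cages and between kinds of cage under every alternative run for it, and with cage as a replicate block 0 of the 10 genes were called in each of the 4 rank comparisons. Between the tables the count of 1 became 2 after correction for GC content (Cldn5 joined Mfsd2a) and ran from 1 to 2 when 1 mouse was left out (Cdh5 joined). The Cldn5 rank difference in log2 CPM ran from -0.029 to 0.10 in males and from 0.026 to 0.18 in females when 1 mouse was left out. In males it changed sign without 6 of the mice, while its main value was 0.028. Exchanging ranks within cages (paired, as a replicate block) left these differences at 0.028 (exact p = 0.781) and 0.092 (exact p = 0.375, smallest possible 0.125). Of 1392 fold changes of single genes under an alternative (8 to which DESeq2 gave no adjusted p were left out), 1284 kept their direction and call, 4 gained a call and 104 that were never called changed sign. The 320 cage tests, which have no direction, kept their call. The cause of these shifts was not tested. Depth limits Cdh5 most, with 132 to 250 counts per mouse.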
